A study of Drosophila melanogaster with 5 samples.

Results

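Of 15196 regions formed by merging the ATAC-seq peaks of 5 sorted midgut cell populations, 2769 held a peak in ECs (enterocytes) and none in esg+ progenitor cells and none in EEs (enteroendocrine cells), which is 18.2% of all regions. These EC-only regions were chosen by the presence and absence of peaks on the arms of chromosomes 2, 3, 4 and X, so their lack of a progenitor or EE peak and the height of their EC peak are a description and not a finding. The study profiled accessible chromatin in normal cell types and after depletion of a single factor that holds cell identity, and 1 library of each population was used here. ECs were sorted as GFP+ cells from guts with Myo1A-GAL4, tubP-GAL80ts and UAS-GFP. Progenitor cells carried esg-GAL4 and EEs prosV1-GAL4 with the same GAL80ts and GFP transgenes. Pros-depleted EEs carried prosV1-GAL4 with UAS-pros-RNAi, again with GAL80ts and GFP. Ttk-depleted ECs carried Myo1A-GAL4 with UAS-ttk-RNAi, UAS-GFP, tubP-GAL80ts and the pros-mCherry-KI allele, and were sorted as GFPweak cells with mCherry. All flies were the progeny of crosses at 18 °C, were moved to 29 °C at 5 to 7 days of age, so that GAL4 became active, and gave about 40000 cells from 100 to 150 guts per sample. Myo1A-GAL4 is also active in some late enteroblasts, so the EC sort can hold such cells. Each RNAi population is the product of 1 driver, and the Ttk-depleted cells were also picked by a Pros reporter, so that library holds mCherry+ cells and not all cells with the RNAi. With 1 library per population there is no replicate check, no test was made, and the 95% Wilson intervals given with shares cover counting error only.

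ATAC-seq marks open chromatin because the Tn5 transposase inserts adapters where nucleosomes leave DNA exposed. Stretches with many inserts are usually promoters and enhancers, where transcription factors bind, and a peak caller such as MACS3 reports those that exceed the local background of the same library. ECs are the large polyploid absorptive cells of the fly midgut, which secrete digestive enzymes and take up nutrients. They arise from stem cells through enteroblasts and are known for expression of the POU factor Pdm1 (nub) and of the brush border myosin Myo31DF (Myo1A), whose regulatory sequence drives the EC GAL4.

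The DNA under 8 summits shows the range of what the rule collected. Each line gives the summit and 50 bases to each side, on the forward strand of the BDGP6 assembly, with GATA motifs (TGATAA or AGATAA) and the Snail-type E-box CAGGTG in capitals on either strand. Members on 1 of the arms and windows with UTR bases were passed over in choosing them. Of the rest, the first 4 are the strongest member, the strongest that also had a peak in Pros-depleted EEs, the strongest that also had one in Ttk-depleted ECs, and the strongest with its summit in coding sequence. They lie at chrX:14622538-14622638 in an intron near sbm, at chr3L:9105653-9105753 in an intron near bol, at chrX:14947545-14947645 in an intron near pdgy and at chr2L:5212971-5213071 in the coding sequence of CG7742.
sbm: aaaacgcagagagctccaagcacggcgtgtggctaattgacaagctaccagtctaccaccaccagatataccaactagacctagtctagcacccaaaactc
bol: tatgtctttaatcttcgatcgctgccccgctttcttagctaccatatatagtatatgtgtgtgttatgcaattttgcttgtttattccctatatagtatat
pdgy: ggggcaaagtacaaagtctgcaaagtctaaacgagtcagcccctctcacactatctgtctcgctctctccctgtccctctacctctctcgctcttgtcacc
CG7742: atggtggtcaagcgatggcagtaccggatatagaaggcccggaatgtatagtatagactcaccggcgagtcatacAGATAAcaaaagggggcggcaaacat
Of these windows the GC content was 49.5%, 33.7%, 53.5% and 49.5%, and only the CG7742 window held a capitalised motif, 1 GATA motif.

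The other 4 windows are the strongest coding members in the windows of 4 listed genes, and their folds of 2.77, 2.30, 2.39 and 2.40 lay above the third quartile of all members. They belong to the EC marker nub at chr2L:12626073-12626173, to the titin-like muscle gene sls at chr3L:2043515-2043615, to the proton pump subunit gene Vha55 at chr3R:12625253-12625353 and to the digestive protease gene Jon25Bii at chr2L:4952622-4952722.
nub: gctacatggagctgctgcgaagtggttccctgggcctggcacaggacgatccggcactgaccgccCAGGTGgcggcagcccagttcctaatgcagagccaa
sls: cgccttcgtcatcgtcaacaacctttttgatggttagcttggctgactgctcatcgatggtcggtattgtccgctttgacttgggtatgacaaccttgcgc
Vha55: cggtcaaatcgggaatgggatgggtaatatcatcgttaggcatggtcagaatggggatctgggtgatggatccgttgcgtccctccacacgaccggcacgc
Jon25Bii: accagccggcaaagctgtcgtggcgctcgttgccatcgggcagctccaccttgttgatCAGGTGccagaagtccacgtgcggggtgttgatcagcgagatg
The GC content of these windows was 64.4%, 50.5%, 56.4% and 61.4%. The nub and Jon25Bii windows each held 1 Snail-type E-box, and no window of these 4 held a GATA motif.

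The EC list held 10048 peaks, the progenitor list 9311, the EE list 9048, the Pros-depleted EE list 8466 and the Ttk-depleted EC list 3269, and sequencing depth is unknown. The EC markers were checked first. Within 3 kb of a TSS, nub had 3 peaks in ECs, 3 in progenitor cells and 2 in EEs, mex1 had 2, 1 and 2, and Myo31DF had no EC peak but 1 peak in each of the other normal cell types. Of 4 EE markers 2 had a peak near a TSS in ECs and 4 in EEs, with Tk and AstC at 0 in ECs, and of 5 progenitor markers 4 had one in ECs and 5 in progenitor cells. Of 6 visceral muscle markers, 2 (Act57B and Tm2) had a peak near a TSS in ECs, against 0 in each of the other 4 libraries. Both peaks are EC-only regions (folds 2.45 and 2.01), so the rule itself excludes a progenitor or EE peak at these places. Mhc, Mlc2, sls and bt had none in any library. Of 4 hemocyte markers 1 had such a peak in ECs and 2 in progenitor cells and in EEs, with Hml and eater at 0 in all libraries. Of 4 tracheal markers 2 had one in ECs and 1 in progenitor cells and in EEs.

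The EC-only regions were weak peaks. Their fold enrichment, the ratio of fragments at the summit to the local background as MACS3 gave it, ranged from 1.48 to 5.60 with a median of 2.09, and the middle of the distribution lay between 1.95 and 2.27 (quartiles). The 6976 EC regions that also held a progenitor or EE peak had a median of 3.34 and reached 14.2. Among these, the 270 regions of ECs and EEs without progenitor cells were nearly as weak as the members. They had a median fold of 2.18, a median percentile of 26.9 in the EC list and a median -log10 q of 3.90. Within the EC list the median member stood at percentile 20.9 by fold enrichment, and the median shared region at 64.7. The -log10 q of the members had a median of 3.20 and a maximum of 40.8. Only 411 members had a value of at least 5 and 34 of at least 10, against 5807 and 4421 of the shared regions.

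**Figure D1:**
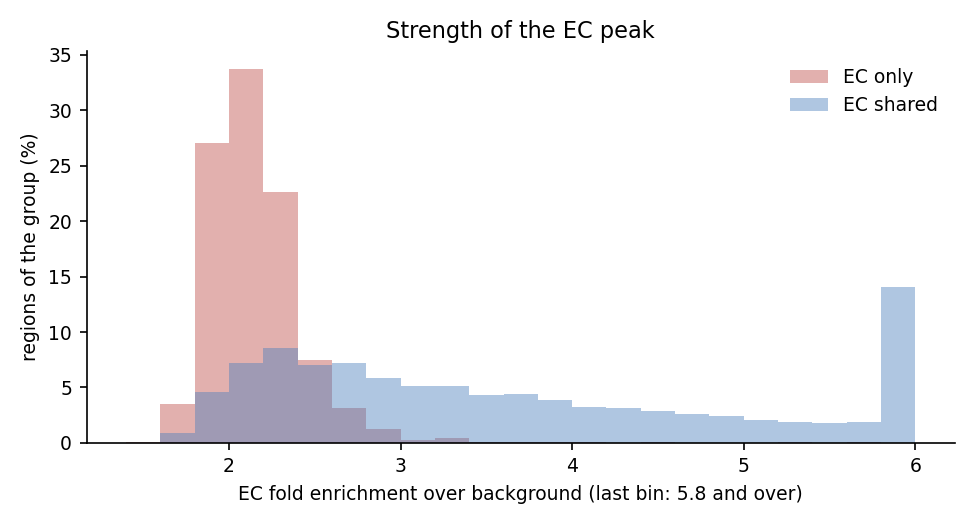
Share of regions (y axis, %) by the fold enrichment of their EC peak (x axis, bins of 0.2, the last bin holding all values of 5.8 and over) for the 2769 EC-only regions and the 6976 EC regions shared with another normal cell type. The EC-only regions pile up around their median of 2.09, whereas the shared regions spread from the same low values to a maximum of 14.2.

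In fragments, the member peaks were only a little above the floor of the library. Solving fold enrichment and p for the fragment count at the summit gave 27 to 122 fragments in the members with a median of 35, against a median of 70 in the shared regions. The lowest background of the EC library came out at 14.9 fragments, and 52.7% of the members were called against that lowest value, as were 22.8% of the shared regions. For this reason many members had the same fold enrichment, and a fold of 2.08 (32 fragments), the most frequent value, was shared by 175 of them. In a bulk library a site open in few cells and a site weakly open in all cannot be told apart. Among EC peaks with a fold of 1.8 to 2.0, 70.1% of the regions were EC only. This share fell to 47.2% at 2.2 to 2.5, to 16.1% at 2.5 to 3.0 and to 0.799% (33 regions) at 3.0 and over.

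Most EC-only regions lay in exons. The summit was in an exon for 2039 members (73.6%, 72.0 to 75.2), in an intron for 367 (13.3%), between genes for 240 (8.67%) and within 250 bp of a TSS, called promoter here, for 123 (4.44%, 3.74 to 5.27). Of the exonic members, 2003 (98.2%) were in coding sequence, 6 in 5′ UTRs, 16 in 3′ UTRs and 14 in non-coding RNAs. Windows with 100 bases to each side of their centre, laid end to end along the arms, fell in exons in 22.9% of cases and in coding sequence in 17.1%. By contrast, 10.5% (9.06 to 12.2) of the 1503 regions of ECs and progenitor cells were exonic, 8.09% (7.38 to 8.86) of the 5203 regions of all 3 normal cell types, 14.4% (13.0 to 16.0) of the 2210 EE-only regions and 9.15% (7.67 to 10.9) of the 1235 progenitor-only regions. The nearest class was that of 270 regions of ECs and EEs without progenitor cells, of which 46.3% (40.4 to 52.3) were exonic. Promoters made up 56.0% of the regions of all 3 cell types, 22.9% of EE-only and 37.7% of progenitor-only regions.

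**Figure D2:**
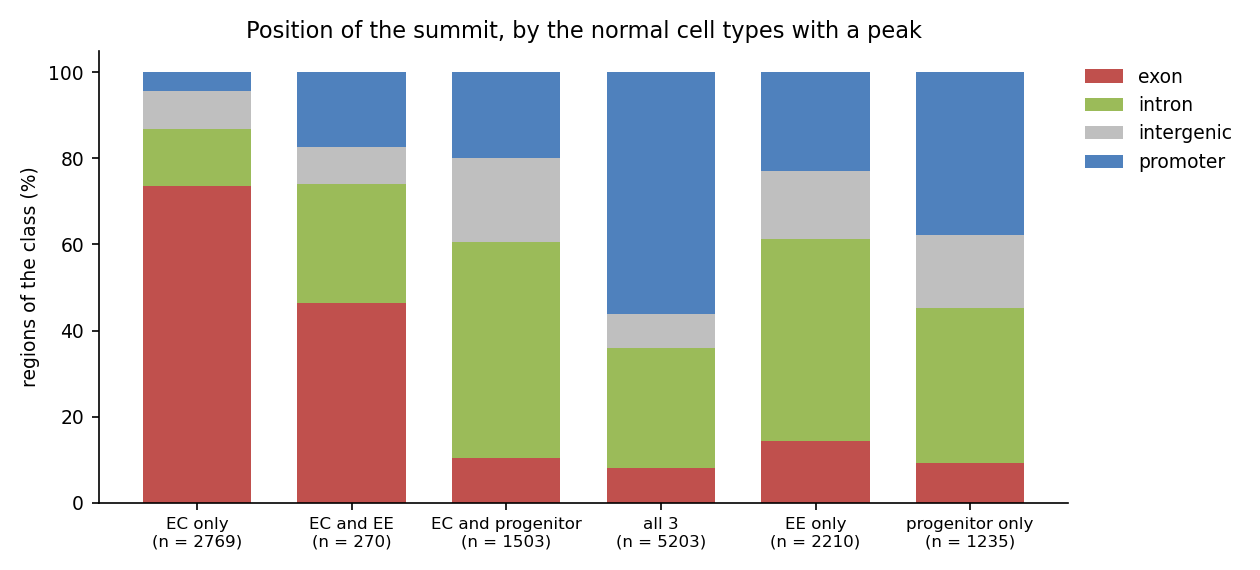
Share of regions (y axis, %) with the summit in an exon, an intron, between genes or within 250 bp of a TSS, for 6 classes of regions defined by the normal cell types that held a peak (x axis, with the number of regions). Exons make up 73.6% of the EC-only bar and between 8.09% and 14.4% of the bars of the other classes, except that of ECs and EEs at 46.3%.

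At equal fold enrichment, members were more often exonic than shared regions. At a fold of 1.8 to 2.0, 73.8% of 749 members were exonic, against 19.1% of 319 shared regions. At 2.5 to 3.0 the shares were 73.9% of 226 members and 11.8% of 1176 shared regions. Below a fold of 2.2, members made up 60.1 to 70.1% of the EC regions in each fold class, so the exonic share at the weak end of the EC list largely restates theirs. Among the weakest 20% of peaks in each list, 55.4% were exonic in ECs, 19.5% in EEs, 17.8% in Pros-depleted EEs and 11.4% in progenitor cells, whereas among the strongest 20% these shares lay between 5.10% and 6.47%. The few strong members differed from the rest. At a fold of at least 3, 10 of 33 members were exonic (30.3%), and at a -log10 q of at least 10 it was 5 of 34 (14.7%, 6.45 to 30.1). When each list was limited to its strongest 3269 peaks, 7.34% (5.39 to 9.91) of 518 EC-only regions were exonic, but only 11 of these regions overlapped a member, so that share describes mostly other regions.

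The exonic members sat in long coding exons and in GC-rich sequence. For the 2054 members with the summit in coding sequence, promoter members included, the longest coding exon there had a median length of 967 bp (quartiles 633 and 1497). The median of all 62940 coding exons was 211 bp and, weighted by length, 736 bp. Only the value of the members takes the longest of overlapping exons, which raises it against the others. The median GC content of the summit with 100 bases to each side was 56.2% in all members, 57.7% in exonic and 50.2% in other members. It was 45.8% in EC regions shared with another normal cell type, 46.3% in EE-only and 42.3% in progenitor-only regions. The regions of ECs and EEs without progenitor cells, a part of the shared regions, came closest to the members at 53.7%. A GC content of at least 50% was found in 81.2% (79.7 to 82.6) of the members and in 29.9% (28.8 to 31.0) of the shared regions. Among the regions of ECs and EEs without progenitor cells it was 65.9% (60.1 to 71.3).

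The density of EC-only regions rose with GC content within exons and outside them. Per 1000 exonic windows there were 0.197 members below 40% GC, 4.78 at 45 to 50%, 28.7 at 55 to 60% and 84.1 at 65% and over. In introns and between genes the density rose from 0.321 below 40% GC to 3.99 at 50 to 55% and 8.73 at 55 to 60%, and the classes above 60% held only 12 and 2 members. Shared EC regions went from 1.77 to 11.7 per 1000 exonic windows over the same range, and EE-only regions stayed between 1.4 and 2.92. At 55 to 60% GC, exons therefore held more members per window than introns and intergenic sequence, 28.7 against 8.73. The regions of ECs and EEs without progenitor cells also rose, from 0.0281 to 4.67 per 1000 exonic windows. GC content thus moved with membership, and its part in the result was not tested.

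**Figure D3:**
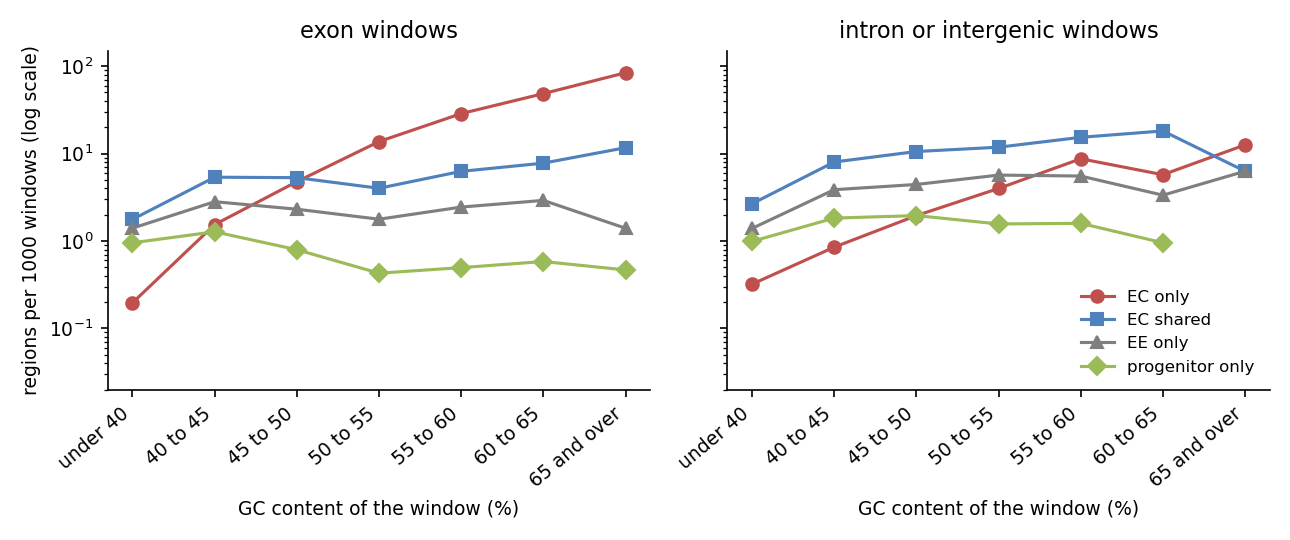
Regions per 1000 adjoining windows of the arms (y axis, log scale) by the GC content of the window (x axis, %) in exons (left) and in introns and between genes (right), for EC-only, EC-shared, EE-only and progenitor-only regions; a class with 0 regions has no point. In exons the EC-only line climbs from 0.197 to 84.1, whereas the EE-only line stays between 1.4 and 2.92.

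Motif shares in EC-only regions were mostly close to those of genome windows of equal GC content. All motifs were searched as exact letters on both strands in 100 bases to each side of the summit, and a match is a description and not a binding site. A GATA motif (TGATAA or AGATAA, the site of GATAe and other GATA factors that specify the midgut) was present in 232 members (8.38%, 7.40 to 9.47), where 21.4% of all windows of the arms held one. It was found in 6.28% of exonic members and in 14.7% (12.1 to 17.7) of those in introns or between genes. In introns and between genes, 35.0% (33.3 to 36.7) of shared EC regions, 39.4% of EE-only and 32.2% of progenitor-only regions held it, and 22.9% of windows. At equal GC content of 50 to 60%, the shares were 7.10% (5.77 to 8.69) in exonic members and 9.40% in exon windows, 11.8% (8.46 to 16.1) in members in introns or between genes, 10.6% in such windows and 23.2% (20.2 to 26.5) in such shared regions. In introns and between genes, the lower share of GATA motifs in members than in shared regions thus remained at equal GC content.

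Motifs that lead in other accessible regions were near the level of plain sequence in the members. The GAGA motif GAGAGAG, bound by Trl, was found at 50 to 60% GC in 3.68% of members in introns or between genes, in 3.8% of such windows and in 16.7% of such shared EC regions. For the CA repeat CACACACA the shares were 7.35%, 6.31% and 16.4%. For the forkhead motif TGTTTAC they were 2.57%, 2.36% and 5.87%, and for the AP-1 motif TGANTCA, bound by Jra and kay, 4.41%, 2.98% and 8.22%. The E-box CAGGTG, recognised by Snail-type repressors such as Esg, was found in 20.4% (18.7 to 22.2) of exonic members and in 12.4% of exon windows, but at 50 to 60% GC the shares were 19.1% (17.0 to 21.4) and 17.3%. The motif AGGTCA of nuclear receptors was found in 11.9% (10.1 to 13.8) of exonic members at that GC content, in 8.27% of exon windows and in 6.10% of shared exonic regions. GGTCCT, a core of the Ttk site, was in 7.68% of these members and 7.81% of these windows. The Cdx-type motif TTTATG of Cad, a factor of the posterior gut, was in 3.92% of exonic members and 11.8% of exon windows, and at 50 to 60% GC in 4.51% and 5.28%. The POU octamer ATGCAAAT of factors such as Pdm1 was at 50 to 60% GC in 0.751% of exonic members and 0.819% of exon windows, and in 2.94% of members and 2.72% of windows in introns or between genes.

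**Figure D4:**
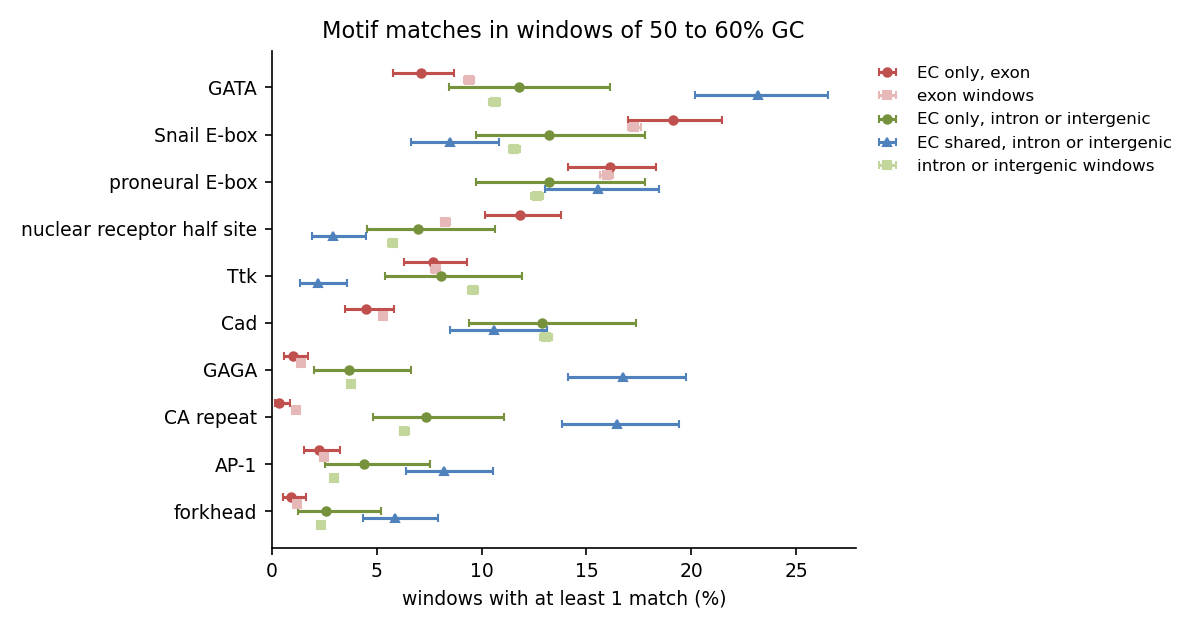
Share of windows (x axis, %, with 95% Wilson intervals that cover counting error only) with at least 1 match to each of 10 motifs (y axis, named by the factor or sequence type) at 50 to 60% GC, for EC-only regions in exons and in introns or between genes, shared EC regions in introns or between genes, and genome windows of the same kind. For GATA and GAGA the shared EC regions stand at 23.2% and 16.7%, whereas the EC-only regions in introns or between genes stand at 11.8% and 3.68%.

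Of 13945 protein-coding genes, 3748 (26.9%) had an EC-only summit within the gene body and 3 kb to each side. There were 2889 genes with 1 such region, 659 with 2, 138 with 3, 41 with 4, 11 with 5, 5 with 6, 4 with 7 and 1 with 9. The members spread over 1837 genes when only summits in exons of protein-coding genes were counted, of which 1589 had 1 exonic member and 43 had 3 or more. The most, 9, were in the window of kirre, which encodes an immunoglobulin adhesion protein of myoblast fusion, yet none was in an exon of kirre. Of these, 6 lay in exons of genes nested in its 394 kb, CG3588, CG32793, CG14420, CG3603 and rst. The next genes were CG43867, the tyrosine phosphatase gene Ptp61F, Svil (supervillin) and the actin regulator gene sick with 7 each. Ptp61F had none in its own exons, Svil had 5 and sick had 4. The titin-like gene sls had 6, all in its own exons, with folds from 1.8 to 2.30 and 29 to 39 fragments. The mucin-related gene Mur2B, the planar polarity gene esn, the kinase scaffold gene fry and heca also had 6 each. These 10 genes were 41.6 to 394 kb long, where the median of all protein-coding genes was 2.17 kb.

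Of 3 enterocyte markers 2 had a member in their window, 3 members in all. This is 39.7 members per Mb of gene windows, where all genes had 24.1 per Mb. The tracheal markers had 57.5 per Mb, the hemocyte markers 27.0, the EE markers 23.5 and the progenitor markers 9.41, each from few members. The EC factor gene nub had 2, both in its coding sequence, with folds of 2.77 (43 fragments) and 2.2 (34 fragments). The window of mex1 held 1, which lay in an exon of its neighbour CG13454 (fold 1.93), and that of Myo31DF held none. Of 18 midgut transcription factor genes 6 (33.3%) had a member, against 26.9% of all genes. An EC region shared with another normal cell type was found for 18 of them, against 58.7% of all genes. Per Mb of gene windows this list had 16.0 members, below the 24.1 of all genes. Among markers of other cells, the progenitor gene klu had 1 exonic member (1.97) and esg had none. The EE factor gene pros had 3, with folds of 2.10 in an intron, 2.27 in an exon and 1.90 at the promoter of mgr.

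Genes of digestion and uptake are given list by list, and differences between the lists were not tested. Of 30 trypsin and chymotrypsin-like protease genes, whose products cut dietary protein, 14 (46.7%) had a member in their window, against 26.9% of all genes. A shared EC region was found for 5 of the 30 (16.7%), against 58.7% of all genes. These 14 genes shared 8 distinct members, 6 of them exonic, as protease genes stand in tight arrays. Jon25Bii (fold 2.40), Jon44E (1.95), Jon66Cii (1.99), Jon99Ci (2.27) and betaTry (2.2) each carried one in their own exon, and alphaTry carried one at its promoter (2.14). Copies in these arrays are similar in sequence, and where reads could not be told apart the count of any 1 copy is uncertain. Of 20 amylase, maltase and lysozyme genes 6 had a member, among them a peak at the promoter of the lysozyme gene LysP (2.58). Of 28 lipid metabolism genes 3 (10.7%, 3.71 to 27.2) had a member and 19 (67.9%) a shared EC region. Nutrient and ion transporter genes had 7 of 23, brush border and cytoskeleton genes 4 of 11 and smooth septate junction genes 4 of 10. In members per Mb of gene windows, these lists stood at 24.3, 25.03 and 17.1, in that order, against 24.1 over all genes. The amylase, maltase and lysozyme genes stood at 39.3 and the lipid metabolism genes at 9.09.

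Genes of detoxification, of the proton pump and of immunity had shares on both sides of that of all genes. Of 83 cytochrome P450 genes 17 (20.5%, 13.2 to 30.4) had a member, of 35 glutathione transferase genes 7 and of 35 UDP-glycosyltransferase genes 8. Of 33 vacuolar ATPase genes 10 (30.3%, 17.4 to 47.3) had one, and 11 of their 13 members were exonic. Vha55, a subunit of the catalytic part of the pump, had 3 with folds of 1.95, 2.39 and 2.08, the first of them between genes. Vha44 had 2 in its exons (1.94 and 2.57) and Vha68-3 had 2 (1.78 and 2.2). Of 32 peptidoglycan recognition and Imd genes 10 had a member. Ribosomal protein genes, which every cell uses, had 11 of 85 (12.9%, 7.38 to 21.7). A shared EC region was found for 72 of them (84.7%), against 58.7% of all genes. Per Mb of gene windows the order differed, with 24.1 members over all genes. The P450 genes had 33.4, the glutathione transferase genes 21.7 and the UDP-glycosyltransferase genes 31.7. The vacuolar ATPase genes had 48.0, the peptidoglycan recognition and Imd genes 31.9 and the ribosomal protein genes 20.9.

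Genes known from other cell types were also among those with members. Of 6 visceral muscle markers 5 had a member, 13 in all and 12 of these exonic, which is 66.1 per Mb of gene windows against 24.1 over all genes. Beside sls these were bt with 3 (folds 2.14, 1.82 and 1.89), Tm2 with 2 (2.01 in its exon and 2.27 at the promoter of CG14866), Act57B with 1 (2.45) and Mhc with 1 (1.94). The muscle markers Mhc, sls and bt had no peak near a TSS in any library, and the part of muscle cells in these values was not tested. All 4 tracheal markers and 1 of 4 hemocyte markers (Pxn) had a member. Chemoreceptor genes had 36 of 179 (20.1%, 14.9 to 26.6), neuronal adhesion genes 19 of 54 (35.2%, 23.8 to 48.5) and Hox genes 3 of 8. Per Mb of gene windows the neuronal adhesion genes had 9.84 members and the Hox genes 7.78, below the 24.1 of all genes, and the proteases had 70.4. The intervals treat genes as separate, although neighbours share regions and the median gene length ran from 0.912 kb in the protease list to 36.2 kb in the neuronal adhesion list.

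The remaining listed genes with 2 or more members in their windows were spread over most lists. Cyp28d1, Cyp4g1, Ugt37D1, Ugt37E1, RpL10Ab, RpS15, Npc2g, Npc2h, Cad99C, Gr21a, Pxn, Sln, AttB, l(2)gl, Dr, Vha68-2, Jon25Biii, epsilonTry, DIP-kappa, dpr11, dpr3, side-III and side-V had 2 each, and Cyp18a1, tai, DIP-epsilon and dpr1 had 3 each. Often the region belonged to a neighbour. Both members of Cyp4g1, a P450 gene, lay in its own exons (2.2 and 1.95), but 2 of the 3 of Cyp18a1 lay in exons of phtm (1.86 and 1.88), and both of the ribosomal gene RpS15 lay in exons of CG4945 (2.2 and 2.64).

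The strongest members were mostly outside exons. Of the 10 with the highest fold, 1 was exonic, 4 intronic, 5 intergenic and none at a promoter, 2 overlapped an annotated transposable element, and their GC content was 32.3 to 54.7%. The highest fold was 5.60 at chr2R:16370450-16371768, 4.78 kb from the TSS of CG15711. It was followed by an intronic region near sbm, an amino acid transporter gene (5.35, 84 fragments), and an intronic one near bol, which encodes an RNA-binding protein of male meiosis (4.48, 91 fragments). The next were 6.51 kb from the TSS of S-Lap7, a sperm aminopeptidase gene (4.41), and in an exon of the calnexin gene Cnx99A (4.19). Then came regions whose nearest TSSs of protein-coding genes, those of Pzl (3.96) and CG40813 (3.96), were 815 and 165 kb away. The regions over transposable elements (3.78 each) were 49.4 kb from the TSS of CG17571 and 36.3 kb from that of Marf1, and the last (3.71) was 1.33 kb from that of kek1, which encodes an inhibitor of the EGF receptor. Of these 10, that near CG15711 had a peak in Ttk-depleted ECs and that near bol one in Pros-depleted EEs.

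The regions were spread over the arms, with few clusters. The density was 19.1 to 22.0 members per Mb on the 5 long arms and 13.4 on 4, and EC-only regions were 28.0 to 29.0% of the EC regions of the long arms. A member was called clustered if at least 2 others lay within 10 kb, which was true of 400 (14.4%, 13.2 to 15.8), of 11.9% of EE-only regions and of 49.0% of shared EC regions. These shares depend on the number of regions in each class. Linked in steps of 10 kb, members formed 1460 singletons, with 98 groups of 3, 30 of 4, 12 of 5, 2 of 6 and 3 of 7. Of the groups of 7, the first, of 23.8 kb on 2L, had 6 exonic members in Msp300, Cyp28d1, CG7742 and TpnC25D. The second, of 34.1 kb on X, was that of the genes nested in kirre, again with 6 exonic members. The third, of 16.8 kb on X with DIP1 as the nearest gene, had no exonic member and 6 over transposable elements, with folds from 1.62 to 3.47. CG13991 had 4 coding members within 4.47 kb. An annotated transposable element overlapped 55 members (1.99%) in all.

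Members just inside the rule and EC peaks just outside it had like EC folds. A progenitor or EE peak lay within 50 bp of 24 members (0.867%), whose median EC fold was 2.11. A further 44 EC peaks were left out of the members although their overlap with such a peak was 50 bp or less, and their median EC fold was 2.06. The closest member, at chrX:6108164-6108782 near Nep1, had an EC fold of 1.98 and an EE peak with a fold of 1.97 at a distance of 1 bp. The EC peak at chr2R:24255600-24255971, left out for an overlap of 1 bp with an EE peak of fold 2.75, had an EC fold of 1.99. The median distance from a member to the nearest progenitor or EE peak was 4171 bp, and 526 members (19.0%) had one within 1 kb.

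Few EC-only regions had a peak in the libraries of depleted cells. In Ttk-depleted ECs, 30 of 2769 (1.08%, 0.760 to 1.54) had one, where 23.8% of all regions with an EC peak did. In Pros-depleted EEs it was 91 (3.29%, 2.68 to 4.02), where 59% of all EC regions did. Shared EC regions stood at 32.9% and 81.1%. Low shares in Ttk-depleted ECs were also found in the other classes of a single cell type. EE-only regions stood at 2.99% and 36.8%, and progenitor-only regions at 3.24% and 18.4%. Regions of ECs and EEs without progenitor cells stood at 8.52% and 42.6%. Those of ECs and progenitor cells, which also lack an EE peak, stood at 17.5% and 38.1%. Most shared regions are of all 3 normal cell types, which stood at 38.6% and 95.5%. The loss of a peak in Ttk-depleted ECs cannot be read as closure, because that list held 3269 peaks with a median width of 129 bp, and few of the weak EC regions of any class were found in it. At a fold of 1.8 to 2.0 it held 0.668% of members and 4.70% of shared regions, and at 3.0 and over 12.1% (4 of 33) and 49.0%. In Pros-depleted EEs the shares were 1.47% and 62.1% at 1.8 to 2.0, and 18.2% (6 of 33) and 89.7% at 3.0 and over. Within each fold class the share was lower in members than in shared regions, but the last class is open-ended and shared regions reach higher folds in it, and under 1.8 the Ttk-depleted EC intervals overlapped (0.180 to 5.56 and 1.58 to 12.7). The difference was not tested. The rule had already left out every region with an EE peak, and Pros-depleted EEs are of EE origin. Only 4 members had a peak in both lists, and 2652 (95.8%) had one in neither.

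**Figure D5:**
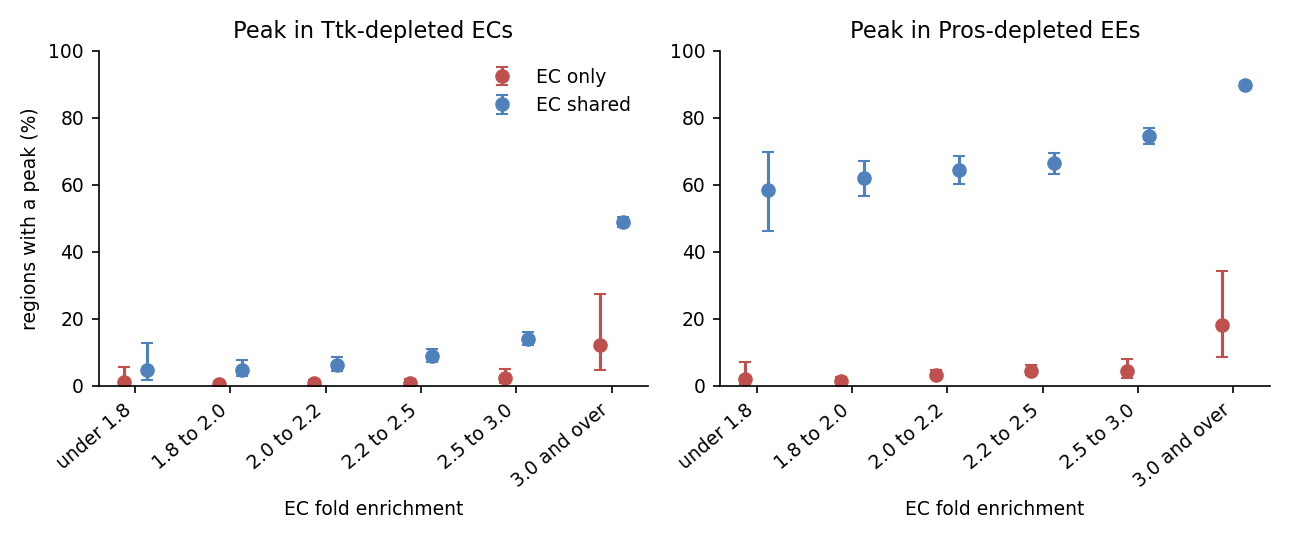
Share of regions (y axis, %) with a peak in Ttk-depleted ECs (left) and in Pros-depleted EEs (right) by the fold enrichment of the EC peak (x axis, 6 classes), for EC-only and shared EC regions, with 95% Wilson intervals that cover counting error only. At a fold of 1.8 to 2.0 the Pros-depleted EE share is 1.47% of EC-only and 62.1% of shared regions.

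Members with a peak in a depleted library were found in all positions. In Ttk-depleted ECs there were 12 exonic members, which is 0.589% (0.337 to 1.03) of all exonic members, and 18 others, which is 2.47% (1.57 to 3.86) of the rest. In Pros-depleted EEs there were 50 (2.45%, 1.86 to 3.22) and 41 (5.62%, 4.17 to 7.53), the latter made up of 13 of 123 promoter members (10.6%), 21 of 367 intronic ones (5.72%) and 7 of 240 intergenic ones (2.92%, 1.42 to 5.9). The strongest with a Ttk-depleted EC peak were those near CG15711 (Ttk-depleted EC fold 4.23), in an intron near the acyl-CoA synthetase gene pdgy (EC fold 3.40, 122 fragments, Ttk-depleted EC fold 5.97), in an exon of Papss near the Rab8 gene (3.08 and 4.22) and 103 kb from the TSS of DIP1 (3.01 and 4.11). Among the next were regions near CG42238, CG45154, Wdr62 and Dscam1, and in exons of CG42674 and the zinc finger gene Cf2. The CG45154 region was a promoter member by a TSS outside the protein-coding genes, and lay 9.635 kb from the TSS of CG45154.

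In Pros-depleted EEs the strongest after bol (Pros-depleted EE fold 2.97) were in introns, 289 kb from the TSS of Myo81F (EC fold 3.34, Pros-depleted EE fold 3.20) and near CG11406 (3.26 and 4.0). Exons of spir, an actin nucleator gene (3.02 and 2.35), of CG7465 and Cpr92A (3.02 and 2.40 each) and of the kinase gene sgg (2.83 and 2.40) followed, with introns 108 kb from the TSS of DIP1 (2.90 and 2.40) and near the myosin kinase gene sqa (2.83 and 1.87). Of the 12 distinct members in the windows of the protease and the amylase, maltase and lysozyme genes, 2 had a Pros-depleted EE peak, at the promoters of LysP (2.58 and 3.89) and alphaTry (2.14 and 3.75), and 10 had none. In their own lists the depleted-library peaks at members were weak, with a median percentile of 19.0 in Ttk-depleted ECs and 12 in Pros-depleted EEs, where peaks in shared EC regions stood at 58.7 and 61.5.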

How the data were processed

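ATAC-seq libraries of 5 sorted midgut populations, 1 each, were used. The authors mapped reads to BDGP6 with Bowtie2 (2.2.4 per the submitters' processing notes) and called peaks with MACS3. The MACS3 settings are not given in the sources used here. The deposited peak lists give a fold enrichment (ratio to the local background), a −log10 p and a −log10 q per peak, so sequencing depth is unknown. Reads with several matches were removed by the authors, which makes repeats and near-identical copies uncertain.

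Intervals of all lists that overlapped or touched on 2L, 2R, 3L, 3R, 4 and X were merged, and a region takes the summit of its strongest EC peak. Fragments at a summit were solved from fold and p with the MACS pseudocount of 1 (99.99% of EC peaks). Positions came from the Ensembl 115 annotation, and a promoter summit lies within 250 bp of any TSS. Nearest genes and distances to a TSS were taken from protein-coding genes only, so a promoter member can lie far from its nearest gene. GC content and motifs were read in 100 bases to each side of summits, with windows of that length along the arms as background. Genes were counted with 3 kb to each side. Intervals are 95% Wilson intervals, which cover counting error only; with 1 library per population no test was made. Genes were named by rule: those nearest to the 10 strongest members overall and among those with a peak in each depleted library, the 10 genes with the most members, genes of 22 lists with 2 or more members, and nub, esg and pros. Any other gene was chosen after its values were seen. A gene that the rule names is not reported here. The members and lists were chosen with earlier results of these data known. Scripts (Python 3.11.15, pandas 2.3.3, SciPy 1.17.1) were tested on simulated data. Alternatives covered peak strength, merging, promoter, cluster, motif and gene windows; those without exonic members, and all of the exonic share, were added after the data were seen.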

Additional observations from a re-analysis of the deposited data

Results flagged for a closer look

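On sequences other than the 6 chromosome arms, 62 regions held an EC peak and none in progenitor cells and EEs, and they were left out of every result. The largest fold enrichment among them was 7.68 and the median 2.83. On the Y chromosome lay 4 of them, although the paper states that the flies were females. These 4 are therefore not read as open chromatin of ECs, and their origin was not tested. By the same rule there were 4 EE-only and 2 progenitor-only regions on these sequences, of which 1 and 0 lay on the Y chromosome.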

How the results depend on the processing

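No paired analysis was possible because each population had 1 library. Of 66 alternative values 19 stayed within the interval of the reported value, or for the number of regions within 1.5 times of it, and 47 did not. With EC peaks themselves as the unit, all values stayed (2780 peaks). The cause of the changes was not tested.

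Limiting ECs to a −log10 q of 5 or more, 411 regions remained with a median fold of 2.53, of which 70.6% were in exons, 1.22% in clusters, 2.92% with a Ttk-depleted EC peak and 7.06% with a Pros-depleted EE peak, and 4.39% of genes had one. At 10 or more there were 34 regions with a median fold of 3.37, 14.7% in exons, 5.88% at promoters, 8.82% in clusters, 17.6% with a GATA motif, 8.82% with a Ttk-depleted EC peak and 14.7% with a Pros-depleted EE peak, and 0.222% of genes had one. With the strongest 3269 peaks of each list, 518 regions had a median fold of 3.98, 7.34% in exons, 29.0% at promoters, 4.83% in clusters, 30.1% with a GATA motif, 41.1% with a Ttk-depleted EC peak and 17.4% with a Pros-depleted EE peak, and 4.84% of genes had one. In this setting 11 of the 518 regions overlapped a member.

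Merging peaks within 250 bp gave 12.6% in clusters and 25.2% of genes. Windows of 250 bp around summits gave a median fold of 2.13, 67.7% in exons, 7.20% at promoters, 17.2% in clusters, 10.3% with a GATA motif, 2.06% with a Ttk-depleted EC peak and 5.20% with a Pros-depleted EE peak, and 32.1% of genes. Promoters were 28.5% within 1000 bp of a TSS and 3.43% where any base of the region lay over one. Clusters were 5.02% at 5 kb and 33.5% at 20 kb. GATA motifs were found in 4.12% with 50 bases to each side, in 17.4% with 200 bases and, for GATAA alone, in 17.7%. The share of genes was 16.5% within 3 kb of any TSS and 15.1% for the gene body alone. Among members outside exons, a choice made after seeing the data, the shares were 14.2% for GATA, 2.47% for Ttk-depleted ECs and 5.62% for Pros-depleted EEs.

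With 1 library each and depth unknown, an absent peak in progenitor cells, EEs or depleted cells can be a peak under the threshold of that list.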
